A study of Mus musculus with 20 samples.

Results

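Neurotrophins are secreted growth factors that keep neurons alive and shape their axons, dendrites and synapses. Brain-derived neurotrophic factor (BDNF) acts through the receptor tyrosine kinase TrkB, the product of Ntrk2, and neurotrophin-3 acts through TrkC, the product of Ntrk3. The p75 receptor, encoded by Ngfr, binds all mature neurotrophins and, together with sortilin, encoded by Sort1, their uncleaved precursors. Vgf encodes a secreted peptide precursor that neurotrophins induce in neurons. Of the 7 genes chosen by symbol (Bdnf, Ntf3, Ntrk2, Ntrk3, Ngfr, Sort1 and Vgf), 6 had a named probe set among the 20239 named genes of the array, and Ntf3 was not analysed here. Each of the 6 was read by 1 probe set, and Ntf5, which encodes neurotrophin-4, a further TrkB ligand, was added from the list of other family genes.

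The samples were forebrains of 20 mouse embryos, 1 per array, labelled as embryonic day 15 and collected at E15.5. Ts1Cje males, which carry a partial trisomy of chromosome 16 and serve as a model of Down syndrome, had been crossed to C57Bl/6J females, so every litter could hold trisomic and wild-type (WT) embryos. From mating on, the breeding pairs ate purified powdered chow, either plain or with 2 g of the plant flavone apigenin per kg, a stated intake of 333 to 400 mg per kg per day. The 4 groups, WT on plain chow, WT on apigenin, Ts1Cje on plain chow and Ts1Cje on apigenin, had 5 embryos each. The labels name no litter, and embryos may share a mother. The p-values therefore reflect only how these embryos vary. All values are log2 expression after RMA, a method that evens out the arrays and compresses dim signals.

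Nothing in the arrays went against the genotype labels. The 60 measured genes of the trisomic segment averaged 8.46 and 8.45 in the WT groups and 8.74 and 8.73 in the Ts1Cje groups, with no overlap. The arrays correlated at 0.9908 to 0.9971, and their medians lay between 7.841 and 7.879. The embryo numbers in the titles fell into runs that each held 1 chow, so chow and run cannot be told apart. Every group held 3 embryos with high and 2 with low Y-linked expression. The list of 12 measured deep-layer neuron genes, which includes the cortical factor Tbr1, averaged 9.61 to 9.74 per embryo, and that of 12 hindbrain and spinal cord genes 6.09 to 6.43, below the array medians. The 12 diencephalon and midbrain genes averaged 7.86 to 8.44, around or above those medians. Their SD on plain chow and on apigenin was 0.09 and 0.13 in WT, and 0.19 and 0.23 in Ts1Cje.

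The sequences before the start of Ntrk2 and of Ngfr are shown because these receptor genes lie on opposite sides of the comparison of chows. They come from RefSeq (GRCm38.p6), run 5′ to 3′ on the gene's own strand and end at the gene's first annotated base. Capitals mark any match, on either strand, to TGACGTCA (the cAMP response element), GGGCGG (the GC box), CAGCTG or CACGTG (E-boxes), which do not overlap one another here.
Ntrk2, chr13:58806319-58806471, plus strand: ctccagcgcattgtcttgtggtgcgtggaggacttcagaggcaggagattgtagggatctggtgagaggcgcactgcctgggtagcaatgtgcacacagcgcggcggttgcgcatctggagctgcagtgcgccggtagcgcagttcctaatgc
Ngfr, chr11:95587699-95587948, minus strand: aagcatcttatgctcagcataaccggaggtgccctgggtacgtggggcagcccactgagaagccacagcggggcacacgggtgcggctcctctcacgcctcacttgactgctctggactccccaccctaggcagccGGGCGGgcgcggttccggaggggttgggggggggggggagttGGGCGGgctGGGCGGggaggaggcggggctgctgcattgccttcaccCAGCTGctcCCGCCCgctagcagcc
The 250 bases before the Ngfr start held 4 GC boxes and 1 CAGCTG. The 153 bases shown for Ntrk2 held 0 matches to the 4 motifs. Of all 32851 RefSeq windows of 250 bases, 32.7% held GGGCGG, 13% CAGCTG, 6.02% CACGTG and 1.55% TGACGTCA. Of the 7 windows listed for Bdnf, which starts from several promoters, 2 held GGGCGG, 1 held CAGCTG and 0 held TGACGTCA. These are letters in a window, not binding sites.

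The main comparison asked which neurotrophin genes rise and which fall with apigenin. Both Trk receptor genes fell, Ngfr was higher when both genotypes were averaged, and Bdnf, Sort1 and Vgf did not pass the test. Of the 6 genes, 2 fell and 0 rose in WT, where limma called 5.85% of all named genes lower and 6.46% higher at an adjusted p under 0.05. In Ts1Cje 2 fell and 0 rose, against 8.17% of all genes lower and 8.09% higher. Averaged over genotypes 2 fell and 1 rose, against 12% lower and 13.8% higher. The median difference of the 6 genes was -0.05 averaged over genotypes, and that of all genes -0.001. Calls were thus common on this array, and a count of 2 or 3 among 6 genes is read against those shares.

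**Figure D1:**
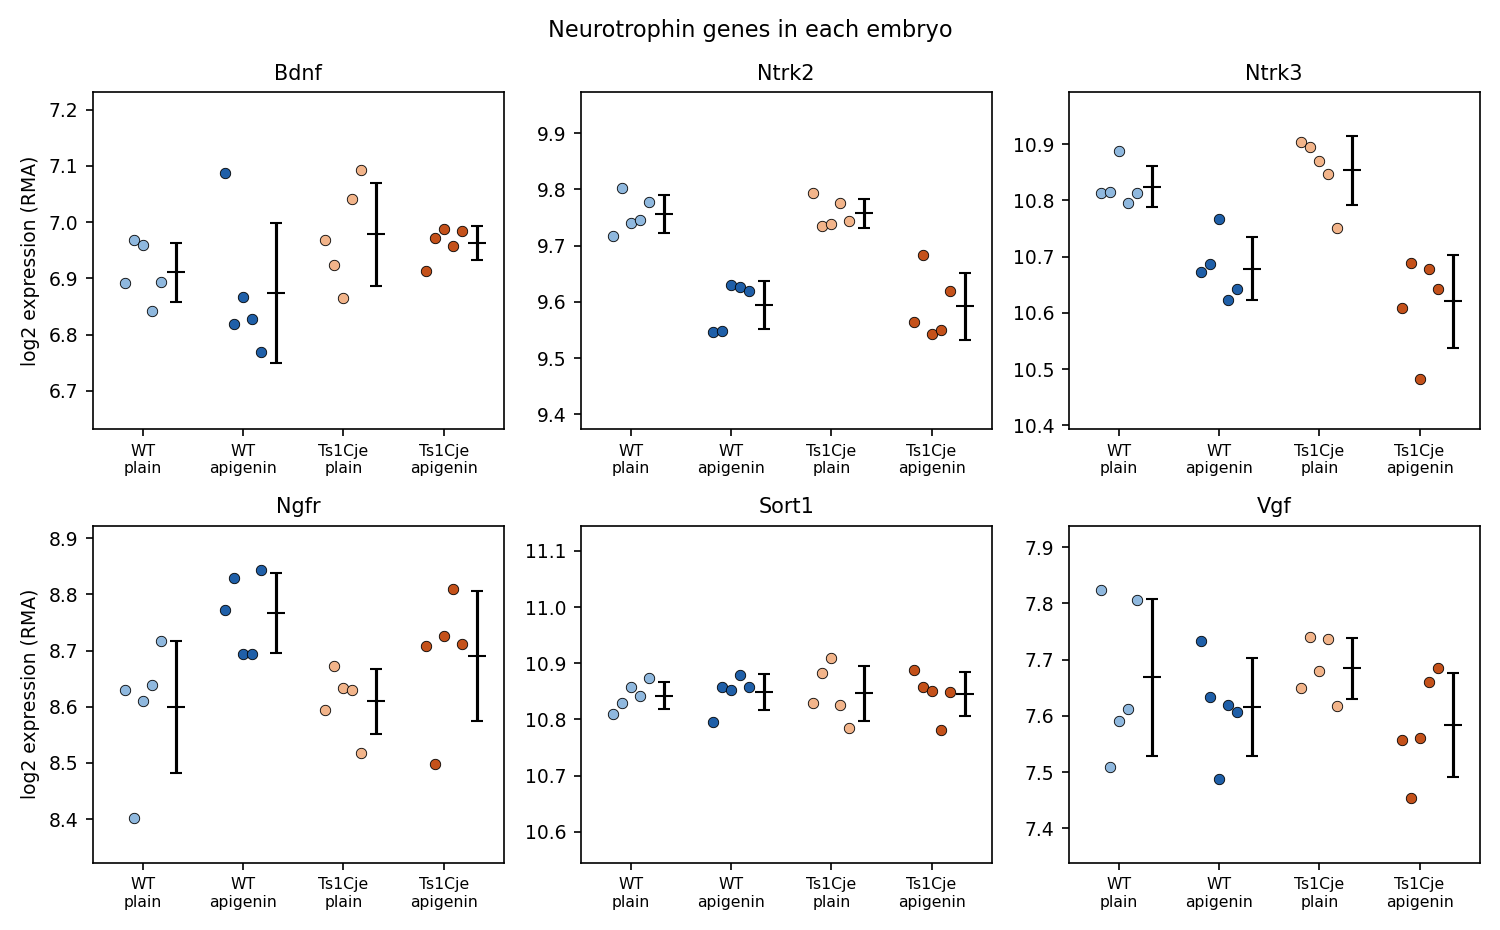
Log2 expression (RMA) of the 6 neurotrophin genes in each of the 20 embryos, in 4 groups of 5. Points are embryos and bars the group mean ± SD. All panels span the same range of log2 units. Ntrk2 in the apigenin embryos sits at 9.54 to 9.68, below all plain-chow embryos at 9.72 to 9.80, while Sort1 lies at one level in the 4 groups.

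Ntrk2, the TrkB gene, was lower in every apigenin embryo than in every plain-chow embryo. The WT embryos on plain chow had 9.72, 9.80, 9.74, 9.75 and 9.78, and those on apigenin 9.55, 9.55, 9.63, 9.63 and 9.62. The Ts1Cje embryos on plain chow had 9.79, 9.74, 9.74, 9.78 and 9.74, and those on apigenin 9.56, 9.68, 9.54, 9.55 and 9.62. The groups did not overlap in either genotype, nor over both together, a separation in this direction that 2.53% of all genes showed. The level fell by 0.16 ± 0.03 in WT (SE, n = 5 per group; limma adjusted p = 0.00375), which is a change of -10.7%. In Ts1Cje it fell by 0.17 ± 0.03 (limma adjusted p = 0.00222), or -10.8%. The genotypes differed in this response by -0.003, with a 95% interval of -0.10 to 0.10. An exact permutation test gave 0.00794 in each genotype, the smallest p that 5 against 5 embryos allow, and 3.15e-05 over both. Its 1 probe set gives 1 value per gene, so full-length and truncated TrkB transcripts were not measured apart.

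Ntrk3, the TrkC gene, fell in both genotypes, too. The WT plain-chow embryos had 10.81, 10.81, 10.89, 10.80 and 10.81, against 10.67, 10.69, 10.77, 10.62 and 10.64 on apigenin. The Ts1Cje plain-chow embryos had 10.90, 10.90, 10.87, 10.85 and 10.75, against 10.61, 10.69, 10.48, 10.68 and 10.64. Within each genotype the chows did not overlap, and over both genotypes the highest apigenin embryo, a WT one at 10.77, lay above the lowest plain-chow embryo, a Ts1Cje one at 10.75. The level fell by 0.15 ± 0.04 in WT (limma adjusted p = 0.0286) and by 0.23 ± 0.04 in Ts1Cje (limma adjusted p = 0.000792), or -9.63% and -14.9%. The interaction of -0.09 had a 95% interval of -0.21 to 0.04 and did not pass. The exact permutation p was 0.00794 in each genotype, which restates that the chows did not overlap there. The share of all genes so separated within a genotype was not counted. At an unadjusted p under 0.05 limma gave 24.7% of all genes in WT and 27.4% in Ts1Cje. The WT call was lost when 1 of 4 embryos was left out, with adjusted p = 0.0717 without replicate 3 on plain chow, and 0.0504, 0.0709 and 0.0702 without replicates 2, 4 and 5 on apigenin.

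**Figure D2:**
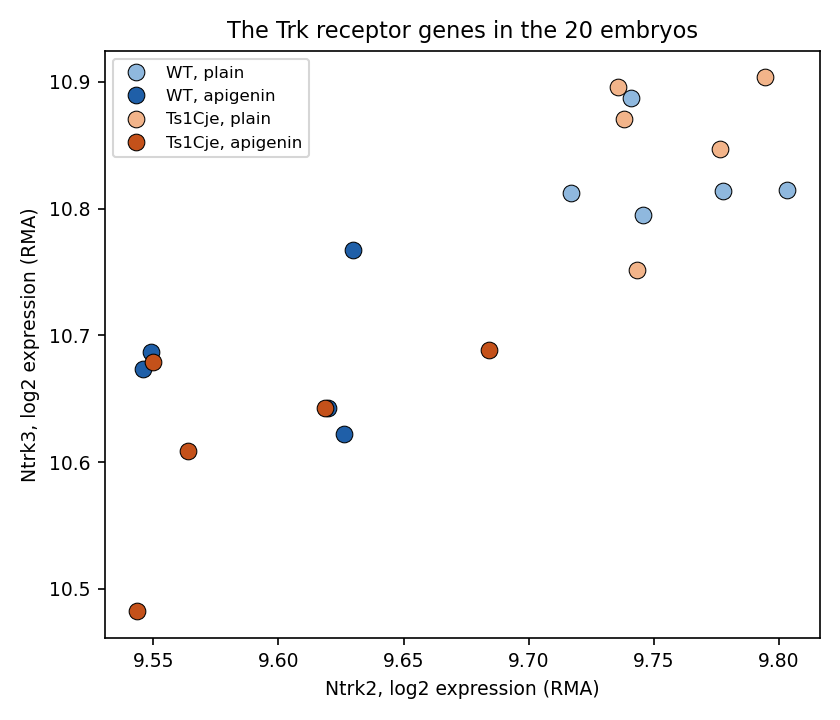
Ntrk2 (x axis) against Ntrk3 (y axis), both in log2 expression (RMA), 1 point per embryo and coloured by group. The 10 apigenin embryos lie at the lower left and the 10 plain-chow embryos at the upper right. The 2 clouds are separate on Ntrk2 and touch on Ntrk3, where they meet at 10.75 to 10.77.

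The shifts of the Trk genes were also compared within each embryo. The within-embryo difference Ntrk2 minus Ntrk3 shifted with apigenin by -0.02 in WT and 0.07 in Ts1Cje, and by 0.03 over both (exact permutation p = 0.385), so an unequal shift was not detected. With the group means removed, Ntrk2 and Ntrk3 correlated at r = 0.306 over the 20 embryos (permutation p = 0.303, 0.729 after Benjamini-Hochberg adjustment over 33 relations, rho = 0.236 with p = 0.382, adjusted 0.84, and r = 0.211 without the 2 embryos of most extreme Ntrk2).

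Ngfr, the p75 gene, went the other way. On plain chow the WT embryos had 8.63, 8.40, 8.61, 8.64 and 8.72, and on apigenin 8.77, 8.83, 8.69, 8.69 and 8.84. The Ts1Cje embryos had 8.59, 8.67, 8.63, 8.63 and 8.52 without apigenin, and 8.71, 8.50, 8.73, 8.81 and 8.71 with it. The groups overlapped, and 9 of the 10 apigenin embryos were above the plain-chow median of their shared pool. The difference averaged over genotypes was 0.12 ± 0.04, a rise of 8.97% (limma adjusted p = 0.0324, exact permutation p = 0.00746). It was 0.17 ± 0.06 in WT (limma adjusted p = 0.0718) and 0.08 ± 0.06 in Ts1Cje (adjusted p = 0.428), neither past the threshold. The averaged call was lost in 9 of the 20 fits that left out 1 embryo: WT plain-chow replicate 2, Ts1Cje plain-chow replicates 1 and 5, WT apigenin replicates 2 and 5, and Ts1Cje apigenin replicates 1, 3, 4 and 5. Their adjusted p ran from 0.051 to 0.0647.

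**Figure D3:**
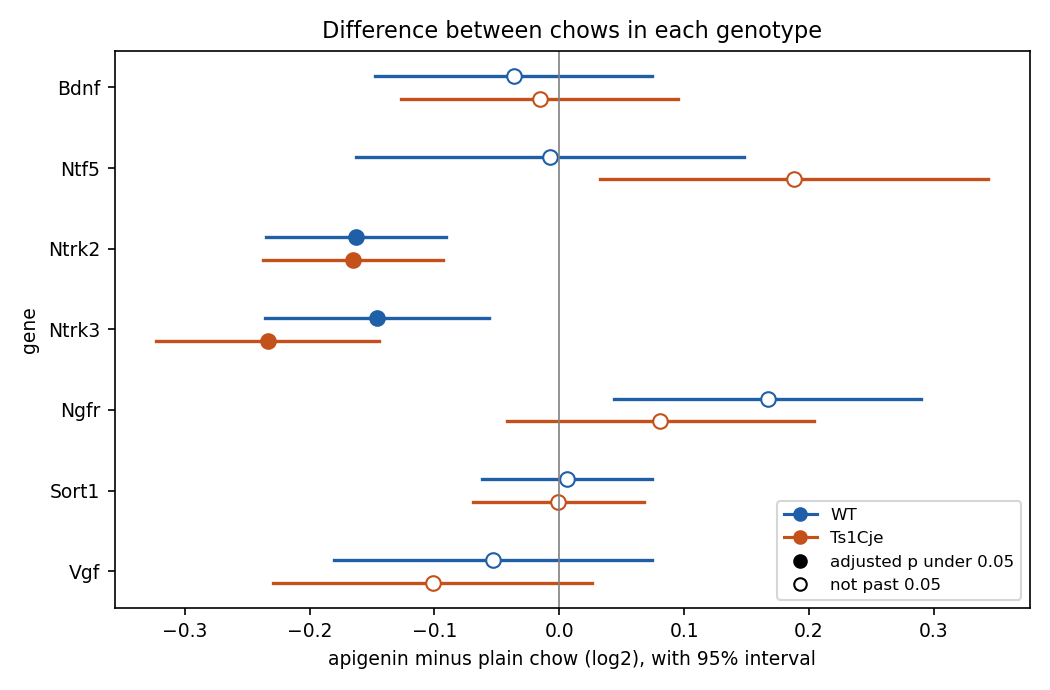
Apigenin minus plain chow in log2 units (x axis) for the 6 neurotrophin genes and Ntf5 (y axis), in WT (blue) and Ts1Cje (orange). Lines are 95% intervals of limma's fit, and filled points passed an adjusted p of 0.05. Only the 4 points of Ntrk2 and Ntrk3 are filled, and the intervals of the 2 genotypes overlap for each gene shown.

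Among the ligands, Bdnf showed no difference between chows beyond the spread of the embryos (limma adjusted p = 0.691 averaged). In WT it ran from 6.84 to 6.97 (median 6.89) without apigenin and from 6.77 to 7.09 (median 6.83) with it. In Ts1Cje it ran from 6.86 to 7.09 (median 6.97) without and from 6.91 to 6.99 (median 6.97) with apigenin. The widest group was WT on apigenin, where 1 embryo at 7.09 lay above the other 4, which ended at 6.87. The averaged difference of -0.03 ± 0.04 had a 95% interval of -6.99% to 3.70%, so changes within these bounds could not be seen. Bdnf and Ntf5 were among the dimmest 40% of genes, where RMA compresses differences.

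Ntf5 passed no test after adjustment. Its WT means were 6.71 ± 0.14 (SD, n = 5) without apigenin and 6.70 ± 0.14 with it. In Ts1Cje it was 6.61 ± 0.08 and 6.80 ± 0.13, with 5 of 5 apigenin embryos above the plain-chow median. That difference was 0.19 ± 0.07 (SE; limma adjusted p = 0.0965, exact permutation p = 0.0397), and the interaction was 0.20 (limma unadjusted p = 0.0789, adjusted p = 1).

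Sort1, which binds the precursors together with p75, had the smallest SD of the 6 genes over the 20 embryos, 0.034. Its group means were 10.84, 10.85, 10.85 and 10.85 and its 20 embryos lay between 10.78 and 10.91. The averaged difference of 0.003 had a 95% interval of -0.05 to 0.05. For Vgf the averaged difference was -0.08 ± 0.04 (limma adjusted p = 0.218), with 8 of 10 apigenin embryos below the plain-chow median. In WT it ran from 7.51 to 7.82 without apigenin and from 7.49 to 7.73 with it, and in Ts1Cje from 7.62 to 7.74 and from 7.45 to 7.68. Its 95% interval was -0.17 to 0.01.

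Trisomy changed none of the 6 genes at an adjusted p under 0.05, on plain chow, on apigenin or averaged, where 0.311%, 0.311% and 0.623% of all genes passed in either direction. At an unadjusted p under 0.05 limma also gave 0 of the 6 genes in each, beside 6.69%, 5.23% and 8.92% of all genes, shares at which 0 of 6 says little. Bdnf had the smallest p for genotype over both chows, with a difference of Ts1Cje minus WT of 0.08 ± 0.04 (limma adjusted p = 0.564). Within the 4 runs of embryo numbers, this difference was 0.20, -0.02, 0.07 and 0.12, so 1 run of the 4 went the other way. The genotype by apigenin interaction gave 0 calls among the 6 genes and 0% among all genes, and at an unadjusted p under 0.05 limma gave 0 of the 6 and 2.63% of all genes.

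Beyond the receptors, 148 of 166 listed genes of the neurotrophin pathway were measured, a set that includes 9 genes of the related GDNF family. Averaged over genotypes, 44 of the 148 (29.7%) fell and 14 (9.46%) rose, beside 12% and 13.8% of all genes. The median difference of the 148 was -0.04. In WT 24 (16.2%) fell and 9 (6.08%) rose, beside 5.85% and 6.46% of all genes, and in Ts1Cje 32 (21.6%) fell and 11 (7.43%) rose, beside 8.17% and 8.09%. The values that follow are differences averaged over genotypes, with SE and limma's adjusted p, from 10 embryos per chow.

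Genes that package neurotrophins mostly fell where they passed, while the list of processing enzymes had a median near that of all genes. Averaged over genotypes, 12% of all genes fell and 13.8% rose. Of 13 processing enzymes, 3 fell and 1 rose, and their median difference was -0.0004, beside -0.001 for all genes. Furin, which cleaves pro-neurotrophins in the Golgi, fell by 0.21 ± 0.03 (adjusted p = 4.39e-05). Pcsk5, another proprotein convertase, and Cpe, a carboxypeptidase of secretory granules, fell by 0.13 and 0.12. Adam17, which sheds the p75 ectodomain, rose by 0.21 ± 0.04 (adjusted p = 0.000428). Of 10 granins and genes of dense-core vesicles, the stores from which BDNF and VGF are released, 7 fell and 0 rose. Scg2 fell by 0.33 ± 0.04 (adjusted p = 6.32e-06), and Ptprn and Ptprn2, membrane proteins of the vesicles, by 0.26 and 0.21. Of 4 sortilin relatives 2 fell by small amounts, Sorcs2, a co-receptor of p75, by 0.08 ± 0.02 (adjusted p = 0.0267) and Sorcs3 by 0.09 ± 0.03 (adjusted p = 0.0457).

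Intracellular partners of the Trk receptors were called in both directions, where 12% of all genes fell and 13.8% rose. Of 25 adaptors and scaffolds, 9 fell and 3 rose. Rasgrf2, a calcium-regulated Ras exchange factor, fell by 0.45 ± 0.05 (adjusted p = 3.04e-06), and Shc3, the neuronal Shc adaptor, by 0.18 ± 0.03. Slitrk1, which encodes a neuronal membrane protein, fell by 0.17 ± 0.03. Gab1, a docking protein, rose by 0.25 ± 0.04 (adjusted p = 2.92e-05), and the adaptors Crkl and Crk rose by 0.14 and 0.10. In the Ras, MAP kinase and PI3 kinase cascade, 17 of 26 listed genes were measured, 2 rose and 2 fell, near the shares of all genes. Nras rose by 0.23 ± 0.03 and the catalytic subunit gene Pik3ca by 0.09 ± 0.03, whereas the regulatory subunit genes Pik3r1 and Pik3r2 fell by 0.27 ± 0.03 and 0.15 ± 0.03. Of 14 feedback inhibitors 2 rose and 4 fell. Dusp4, a MAP kinase phosphatase, rose by 0.39 ± 0.04 (adjusted p = 7.68e-07), and Ptpn1 by 0.12, while Spry2, Spry4 and Lrig1 fell by 0.20, 0.19 and 0.13.

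Of 17 partners of p75, 3 were higher and 2 lower, near the shares of all genes (13.8% and 12%), so the count is no result about this list. Lingo1, which joins p75 and the Nogo receptor in a complex that limits axon growth, fell by 0.34 ± 0.04 (adjusted p = 3.52e-06), and Rtn4r, the Nogo receptor gene, by 0.12 ± 0.04. Traf6, a signalling adaptor of p75, rose by 0.16 ± 0.03. Zfp369 and Zfp110, the zinc finger genes that encode the NRIF interactors of p75, rose by 0.18 and 0.11. Close paralogs such as these can share probes, so their separate values are uncertain.

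Several regulators of Bdnf transcription changed while Bdnf did not pass. Of 18 measured, 3 rose and 5 fell, beside 13.8% and 12% of all genes. Rest, a repressor of neuronal genes, rose by 0.29 ± 0.03 (adjusted p = 6.38e-07), its cofactor Sin3a by 0.10 and the activator Creb1 by 0.21 ± 0.02 (adjusted p = 2.21e-06). Mef2c, Camk2a and Camk4, which act in calcium-dependent transcription, fell by 0.33, 0.25 and 0.21. Of 20 genes induced by activity or BDNF, 8 fell and 0 rose, beside 12% and 13.8% of all genes. The 12 that did not pass included Arc, Fos, Fosb, Junb and Egr1 to Egr4, while Npas4, Nr4a1, Nr4a3, Tac1 and Sst were among those that fell. The neuropeptide genes Penk and Npy fell most, by 0.60 ± 0.05 (adjusted p = 1.1e-07) and 0.59 ± 0.05, and Inhba, an activin subunit gene, by 0.32 ± 0.05. Npy also stands in the interneuron list and Penk in the striatal list. Nr4a1 of the activity list was the 1 pathway gene called by trisomy, -0.15 averaged over chows (limma adjusted p = 0.0372), and is named here after its value was seen. That is 0.676% of the 148 measured pathway genes, near the 0.623% of all genes, so the count is no result about the pathway. On plain chow or on apigenin alone, trisomy called 0 of them. In the related GDNF family, Ret and Gfra2, a receptor kinase and a co-receptor, fell by 0.26 ± 0.05 and 0.32 ± 0.06, and the other 7 genes did not pass.

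**Figure D4:**
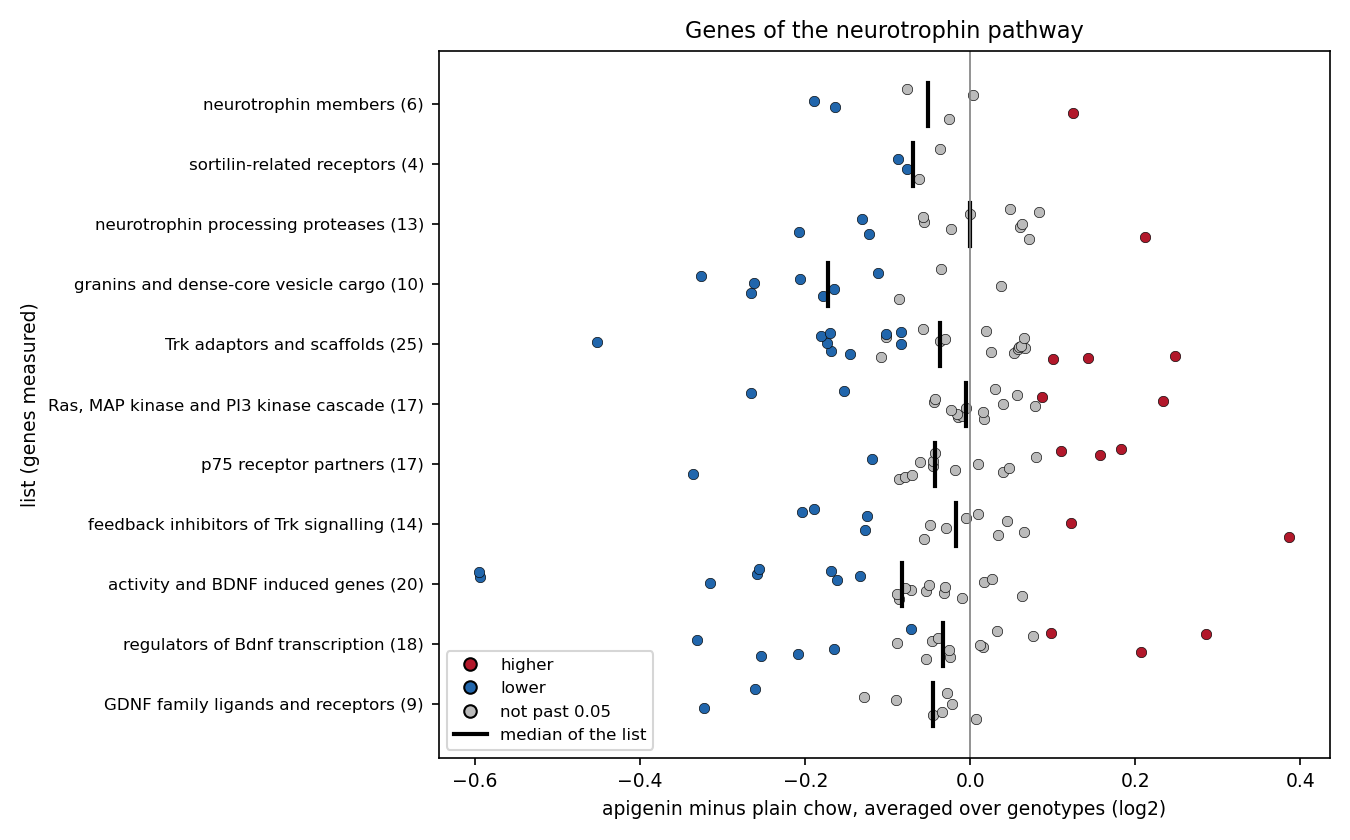
Apigenin minus plain chow, averaged over genotypes, in log2 units (x axis), in rows by list with the number of genes measured. The rows hold the neurotrophin genes and each measured gene of the pathway lists except Ntf5. Red points rose, blue points fell and grey points did not pass an adjusted p of 0.05, and black bars are list medians. The granin list has its median at -0.17 and no gene called higher, while Dusp4 at 0.39 is the highest point.

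Markers of cell state moved with the chows beside these genes. Their counts are read against the 13.8% of all genes that were higher and the 12% lower, averaged over genotypes. All 21 measured dividing-cell genes and all 12 of intermediate progenitors were higher with apigenin in the averaged comparison, as were 9 of 16 radial glia genes with 1 lower. Of 18 genes of postmitotic neurons 12 were lower and 0 higher, and of 11 striatal neuron genes 6 were lower and 1 higher. The interneuron and deep-layer lists were mixed: 6 of 15 interneuron genes were higher and 4 lower, and 5 of 12 deep-layer genes higher and 3 lower. Of 8 upper-layer genes 2 were higher and 1 lower, near the shares of all genes. The dividing-cell mean per embryo ran from 8.79 to 9.11 without apigenin and from 9.26 to 9.44 with it, and the neuron mean from 11.23 to 11.31 and from 11.01 to 11.12, without overlap. Hbb-y, an embryonic globin, averaged 6.97 ± 0.22 (SD, n = 5) and 6.93 ± 0.54 in WT and Ts1Cje on plain chow, and 9.72 ± 0.41 and 9.74 ± 0.43 on apigenin. Of the 8 measured erythroid genes, Hbb-y among them, 3 were higher and 1 lower, with a median difference of 0.11 against 2.78 for Hbb-y alone. Oligodendrocyte precursor genes, 6 of 9, also fell, and 0 of 12 hindbrain, 0 of 12 diencephalon and 0 of 12 microglia genes passed. In whole tissue, fewer cells of a type and less RNA per cell cannot be told apart.

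**Figure D5:**
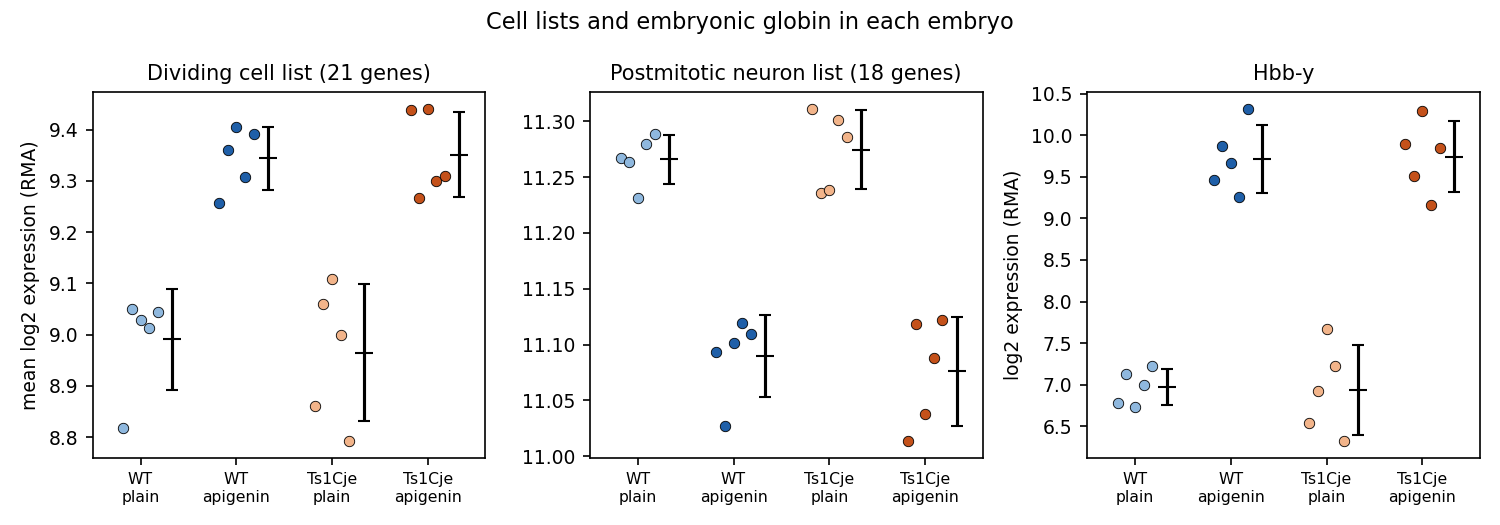
Mean log2 expression (RMA) of the dividing-cell list and the postmitotic neuron list, and the log2 value of Hbb-y, in each of the 20 embryos by group, with the group mean ± SD. The y axes differ between panels. Apigenin embryos are above plain-chow embryos for the dividing-cell list and Hbb-y and below them for the neuron list, with no overlap.

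With these levels as covariates no neurotrophin gene was called. The averaged Ntrk2 difference was -0.02 with the neuron level in the model (limma adjusted p = 0.958), -0.16 with the dividing-cell level (adjusted p = 0.186) and -0.15 with Hbb-y (adjusted p = 0.664). For Ntrk3 it was -0.15, -0.20 and -0.10 (adjusted p = 0.672, 0.173 and 0.822), and for Ngfr -0.003, 0.04 and -0.05. These levels separate the chows completely, and of all 20239 genes 0, 16 and 0 were then called, so such fits have little room to call any gene. The part of cell makeup in the Trk values was not tested apart from this.

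Within groups, embryos with more of the neuron genes had more Ntrk2. With group means removed, Ntrk2 correlated with the neuron level at r = 0.672 over the 20 embryos (permutation p = 0.00541, 0.0446 after Benjamini-Hochberg adjustment over 33 relations; rho = 0.687, permutation p = 0.00372, adjusted 0.0962). Without the 2 embryos of most extreme Ntrk2, r was 0.689. The relation of Ntrk3 to that level did not pass (r = 0.114, permutation p = 0.719, adjusted 0.907; rho = 0.117, p = 0.667). Sort1 followed the dividing-cell level at r = 0.72 (permutation p = 0.00223, adjusted 0.0368; rho = 0.674, p = 0.00875, adjusted 0.0962), and r was 0.666 without the 2 extreme embryos. Between genes, Ngfr and Vgf correlated at r = 0.713 (permutation p = 0.00106, adjusted 0.035; rho = 0.629, p = 0.00845, adjusted 0.0962), and at 0.544 without 2 embryos. Bdnf and Sort1 ran opposite at r = -0.665 (permutation p = 0.00396, adjusted 0.0436; rho = -0.577, p = 0.0182, adjusted 0.15), with -0.476 without 2 embryos. By rank 0 of the 33 relations passed after adjustment.

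The genes most like each receptor over the 20 embryos, by Pearson correlation of the log2 values, were led for Ntrk2 by Ptprj (0.961), Rasgef1a (0.954) and Mfsd6 (0.953). For Ntrk3 they were Grin2b (0.952), a subunit gene of the NMDA receptor, Pde10a (0.939) and D430041D05Rik (0.935). All 6 fell with apigenin, by 0.16 to 0.59, so the gap between chows enters these values. For Ngfr the closest were Snrpa (0.851), Cacfd1 (0.833) and Wdr62 (0.821). For Bdnf, Sort1 and Vgf the highest were Mospd1 (0.764), Tsacc (0.729) and Dhrs11 (0.824). Each is the highest among all named genes and is given as a description.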

How the data were processed

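The 20 forebrain RNAs, 5 per group, were each read on 1 Affymetrix array of the type Mouse Gene ST 1.0. The authors deposited RMA-processed log2 values for every probe set, as the submitters' processing notes name RMA. The sources used here do not give the RMA version, chip definition or genome build. Of 21225 probe sets, 20239 had 1 gene symbol, 0 several and 986 none in the table used.

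A model of 4 group means was fitted to the log2 values with limma 3.58.1 (lmFit, eBayes) in R 4.3.3 over all 20 arrays, two-sided, adjusted over 20239 genes by Benjamini-Hochberg at a threshold of 0.05. Differences of single genes were also tested by exact permutation, two-sided: 252 assignments of embryos within a genotype, or 63504 over both. Correlations used deviations from group means and 100000 permutations within groups. The number of arrays limits the precision. Scripts were tested on simulated data. Genes named were the neurotrophin genes with Ntf5 and, from each pathway list, up to 3 higher and 3 lower by smallest p. Up to 3 of the most correlated genes of each neurotrophin gene were named as well. The cell lists are given by counts and levels, with Tbr1 and Hbb-y named. Further genes of the activity list are named with their calls known. The genes and lists were chosen with earlier results of these data known. Promoter windows were given for Ntrk2, Ngfr and Bdnf only. Alternatives were other tests, thresholds, priors, filters, normalizations, array weights, embryo-number runs, Y-linked class, 3 covariate levels and leaving out each array.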

Additional observations from a re-analysis of the deposited data

Results flagged for a closer look

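Ntrk3 in replicate 3 of the WT plain-chow group, at 10.887, stood above the other 4 embryos of its group, which lay between 10.80 and 10.81. It was the 1 embryo set apart among 28 tests of 7 genes in 4 groups, where chance alone sets apart about 1 group in 20.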

How the results depend on the processing

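In WT 2 of the 6 genes were called, and 1, Ntrk2, with only the compared groups in the fit or with the methods' t-test at an unadjusted p under 0.001. Leaving out 1 embryo gave 1 to 3 called genes in WT. With Hbb-y, the dividing-cell level or the neuron level as a covariate, 0 genes were called in WT, 0 in Ts1Cje and 0 averaged. The Ngfr difference changed sign in some of these fits, in part with values near 0. With Hbb-y it was -0.000302 in WT, -0.0902 in Ts1Cje and -0.0452 averaged. With the dividing-cell level it was -0.00678 in Ts1Cje, and with the neuron level -0.0536 in Ts1Cje and -0.00288 averaged. It stayed positive in WT with the dividing-cell or neuron level, and averaged with the dividing-cell level. The cause of the sign changes was not tested. The Ngfr averaged call was also lost with renewed quantile normalization (adjusted p = 0.0618) and with the t-test at 0.001. Its WT call was gained in 6 alternatives, among them the false discovery rate of 10% (adjusted p = 0.0718) and the runs as a block (0.0465). Each run held 1 chow, so the block cannot separate run from chow. The correlation within runs was estimated at -0.0532, and no conclusion is drawn from that gain. Directions and calls of Ntrk2 held in all 20 fits that left out 1 embryo. Counts of 0 by genotype and interaction held in every alternative run. Of all genes, limma called 2492 in WT, and 1574 with only the compared groups, 1641 with the t-test after Benjamini-Hochberg adjustment and 865 at 0.001. In Ts1Cje 3291 were called and 1332 at 0.001, and averaged 5238 and 3283. The planned difference Bdnf minus Ntf3 was not run. The labels give no replicate number that pairs embryos across groups. With the runs of title numbers as a block, 0 of the 6 genes were called by genotype on plain chow, on apigenin or averaged.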
